A study of Bos taurus with 24 samples.

Results

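miR-224 and miR-452 are a pair of microRNAs (miRNAs) that lie close together on the X chromosome and are known from granulosa cells, the somatic cells that surround the oocyte and make oestradiol. They were taken by name, as the records bta-miR-224 and bta-miR-452 of the deposited plasma table, so they are 2 of its 870 miRNAs, and the rule that picks them uses their names only. Mature miRNAs are short RNAs that guide silencing complexes to messenger RNAs, and some leave their cells and circulate in plasma inside vesicles or bound to protein. In mouse granulosa cells, miR-224 is induced by transforming growth factor beta and acts on Smad4, a mediator of that pathway, and raises aromatase and the release of oestradiol. miR-452 is less studied in the ovary, and in mouse neural crest cells it acts on Wnt5a.

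The samples were plasma of 8 female, non-pregnant, yearling Holstein-Friesian heifers, each bled on Day 0, Day 8 and Day 16 of 1 oestrous cycle, which gave 24 small-RNA libraries with 8 in each group. Day 0 was the first day on which oestrus was seen, when a large follicle is present, and Day 8 and Day 16 lie in the luteal phase, when the corpus luteum makes progesterone. All heifers had first been synchronised with an intravaginal progesterone device, the gonadotrophin-releasing hormone analogue buserelin and the prostaglandin analogue cloprostenol, so no group was free of this treatment. The day of the cycle cannot be told apart here from the time since this treatment or from the order of the bleeds. The comparisons ask whether a circulating miRNA differs between oestrus and the luteal days of the same animals.

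Each library held between 1299679 and 4700764 miRNA counts, and these ranges overlapped between days. Levels are given in RPMM, the reads of a miRNA scaled to the genome-mapped reads of its library, as deposited. Red-cell RNA made up a varying part of each library: miR-486, an erythrocyte miRNA, took a mean share of 19.8% ± 12.2 at oestrus, 19.5% ± 11 at the Day 8 bleed and 28% ± 10.4 at the Day 16 bleed (SD over 8 libraries). For that reason the tests used the counts with TMM scaling, which sets libraries to a common level of the bulk of miRNAs, and both scales are given where they part. Plasma mixes RNA from many tissues, so more or fewer releasing cells and more or less RNA per cell cannot be told apart, nor can the tissue that released a read.

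Both members lie on the minus strand of chromosome X in the deposited coordinates, which follow the UMD assembly of the cattle genome. miR-224 spans 23 bases at chrX:21831401-21831423 and miR-452 spans 22 bases at chrX:21832431-21832452, with 1007 bases between them. Another miRNA of the table, miR-3431, lies 1904 bases from miR-224 on the same strand, at chrX:21829475-21829496. In the RefSeq annotation of the later ARS-UCD assembly, whose coordinates were not used, all 3 miRNA genes lie within GABRE, which encodes the epsilon subunit of the GABA-A receptor. The next miRNA of the table on X, miR-105a, lies 327677 bases away and averaged 0.292 RPMM, so the stretch around miR-224 and miR-452 held no other record than miR-3431.

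miR-224 was a moderately low plasma miRNA and miR-452 a low one. miR-224 averaged 62.5 RPMM over the 24 libraries and took place 157 of 870 by mean level, with 130 to 422 counts in each library. miR-452 averaged 14.9 RPMM and took place 216, with 33 to 130 counts. Both were counted in every library, but the precision differed: the counting error of a single library had a median of 6.23% of the count for miR-224 and 12.6% for miR-452. miR-224 was above 25 RPMM in 24 of 24 libraries, and miR-452 in 1. Thus miR-224 entered the fit on the 181 miRNAs above 25 RPMM in at least 6 of 8 libraries of each day, the limit of the study, and miR-452 was tested only in a wider fit on the 278 miRNAs above 10 counts in as many libraries, which held both.

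The level of miR-224 was lower on average in the luteal libraries than at oestrus, and the days overlapped. On Day 0 its lowest, median and highest levels were 48.2, 71.4 and 88 RPMM (mean 72.5 ± 14.2, SD, n = 8). On Day 8 they were 42.1, 57.3 and 84.2 RPMM (59.2 ± 13.2), and on Day 16 they were 41.2, 54.3 and 70.7 RPMM (55.8 ± 10.3). Heifer 20 held the highest level on each of the 3 days, and heifer 21 the lowest on Day 0 and Day 16, so the lowest oestrus library stood below the mean of either luteal day.

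Animal by animal, the course of miR-224 in RPMM took more than 1 shape. Heifer 16 had the widest span, with 86.1 RPMM on Day 0, 42.1 on Day 8 and 57.1 on Day 16. Heifer 18 had 73.5, 59.6 and 48.9 RPMM on those days, and heifer 20 had 88, 84.2 and 70.7 RPMM. In heifers 18 and 20 each later bleed was thus lower than the one before, and the same held for heifer 34, with 69.2, 68.3 and 53.0 RPMM. Heifer 22 had 87.6, 64.6 and 70.4 RPMM, heifer 25 had 63.7, 49.6 and 49.9 RPMM and heifer 35 had 63.8, 50.3 and 55.6 RPMM, all lowest on Day 8. Heifer 21 alone was highest on Day 8, with 48.2, 54.9 and 41.2 RPMM.

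miR-452 had a similar order of day means, with a wider relative spread. On Day 0 its lowest, median and highest levels were 12.2, 15.4 and 30.4 RPMM (mean 17.2 ± 5.87, SD, n = 8). On Day 8 they were 8.35, 14.2 and 22.5 RPMM (14.7 ± 4.75), and on Day 16 they were 9.43, 12.6 and 17.7 RPMM (12.9 ± 2.91). The Day 0 mean leaned on heifer 22, whose 30.4 RPMM stood well above the next oestrus library, heifer 35 with 18.9 RPMM. Heifer 22 then had 20.3 RPMM on Day 8 and 15.2 on Day 16. The animals did not share 1 course: heifer 20 was highest on Day 8, with 15.7, 22.5 and 17.7 RPMM on the 3 days, whereas heifer 16 was lowest on Day 8, with 8.35 RPMM.

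**Figure D1:**
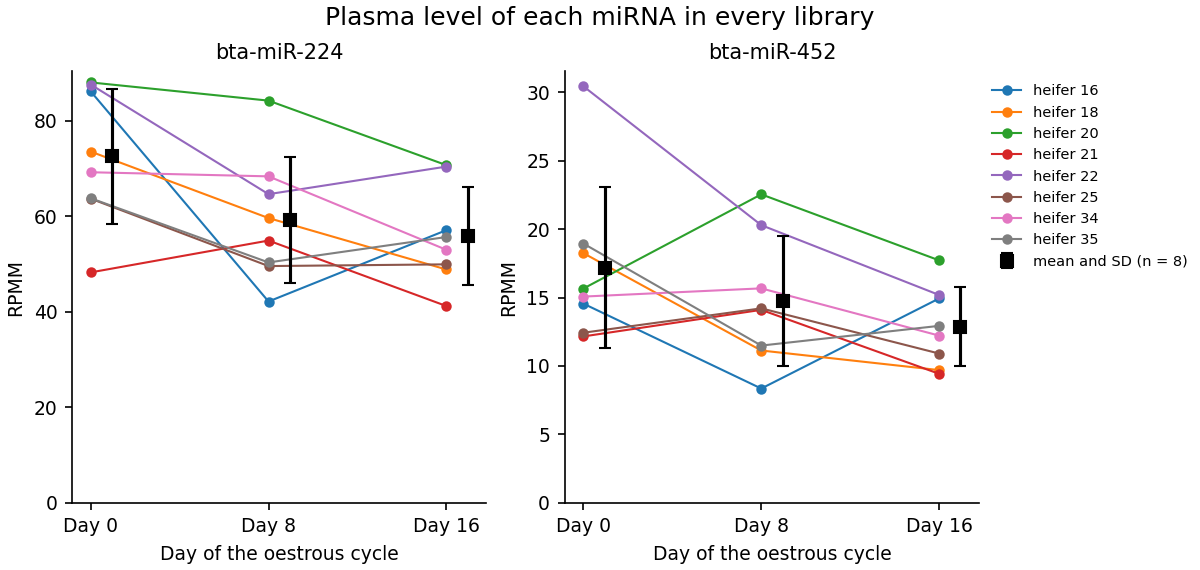
Level of miR-224 (left) and miR-452 (right) in RPMM, by day of the oestrous cycle. Each coloured line joins the 3 libraries of 1 heifer, and black squares with bars are the mean and SD of the 8 libraries of a day: miR-224 averaged 72.5, 59.2 and 55.8 RPMM on Days 0, 8 and 16, miR-452 17.2, 14.7 and 12.9 RPMM, and the days overlapped for both.

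In the edgeR fits on all 24 libraries, neither miRNA passed the limit of the study, an adjusted p below 0.1, in any comparison of days. With the TMM-scaled counts and each heifer as a block, miR-224 had a log2 fold change of -0.29 (SE 0.11) for the luteal days over Day 0, with an adjusted p of 0.192 over the 181 miRNAs (edgeR quasi-likelihood test, Benjamini-Hochberg adjustment). Of those 181 miRNAs, 2.76% were called in this comparison at that limit, and 14.4% were lower at an unadjusted p below 0.05, as miR-224 was. miR-224 was the 16th of 181 by p, against a median log2 fold change of 0.03 over all 181.

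The separate days gave values of the same sign for miR-224. The log2 fold change was -0.34 (SE 0.13, adjusted p = 0.212 by edgeR) for Day 8 over Day 0, where 1.1% of miRNAs were called. DESeq2 called 15 of the 181 there, miR-224 among them (-0.34, adjusted p = 0.0995). It was -0.24 (SE 0.13, adjusted p = 0.382) for Day 16 over Day 0, where 0% were called, 26 of 181 had an unadjusted p below 0.05 (14.4%) and DESeq2 called 3. It was 0.10 (SE 0.13, adjusted p = 0.910) for Day 16 over Day 8, where 0% were called by either tool and 3.87% had an unadjusted p below 0.05. Both luteal comparisons share the Day 0 libraries, so they are not independent of each other. The edgeR test for any effect of day gave an adjusted p of 0.383 for miR-224, and called 0% of miRNAs, while 12.7% had an unadjusted p below 0.05 and DESeq2 called 8. These calls depended on heifer 21: without its 3 libraries, miR-224 passed for the luteal days over Day 0 (log2 fold change -0.40, adjusted p = 0.0280 by edgeR), for Day 8 over Day 0 (-0.47, adjusted p = 0.0302) and for the effect of day (adjusted p = 0.0739). Heifer 21 had more miR-224 on both luteal days than on Day 0 with TMM scaling, by 0.27 and 0.33 in log2. Leaving it out thus moved the fold change further below 0. The number of miRNAs called was then 27 of 181 for the luteal days over Day 0, where it had been 5. It was 33 for Day 8 over Day 0, against 2, and 14 for the effect of day, against 0. The 5 luteal calls depended on other animals too, since 3 miRNAs were called without heifer 20 and 0 without any one of heifers 16, 18, 22, 25, 34 and 35 (edgeR, with 22 to 28 of 181 at an unadjusted p below 0.05).

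In the wider fit, miR-452 had a log2 fold change of -0.25 (SE 0.14, adjusted p = 0.340 over 278 miRNAs by edgeR) for the luteal days over Day 0, and 1.44% of the 278 were called. It was not among the 12.2% that were lower at an unadjusted p below 0.05, whereas miR-224 was. miR-224 had -0.27 (SE 0.11, adjusted p = 0.258 by edgeR) in that fit. For miR-452 the values were -0.24 (SE 0.16, adjusted p = 0.475) for Day 8 over Day 0 and -0.26 (SE 0.16, adjusted p = 0.428) for Day 16 over Day 0, with 0% of miRNAs called in either and an unadjusted p below 0.05 for 13.7% and 13.3%. Between the luteal days its log2 fold change was -0.02 (SE 0.16), with 0% called and 4.68% at an unadjusted p below 0.05. Its adjusted p for any effect of day was 0.536 by edgeR, where 0% were called and 10.1% had an unadjusted p below 0.05. The size of the fold change was thus close to that of miR-224 with a larger error, and the median over all 278 miRNAs for the luteal days was 0.01.

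**Figure D2:**
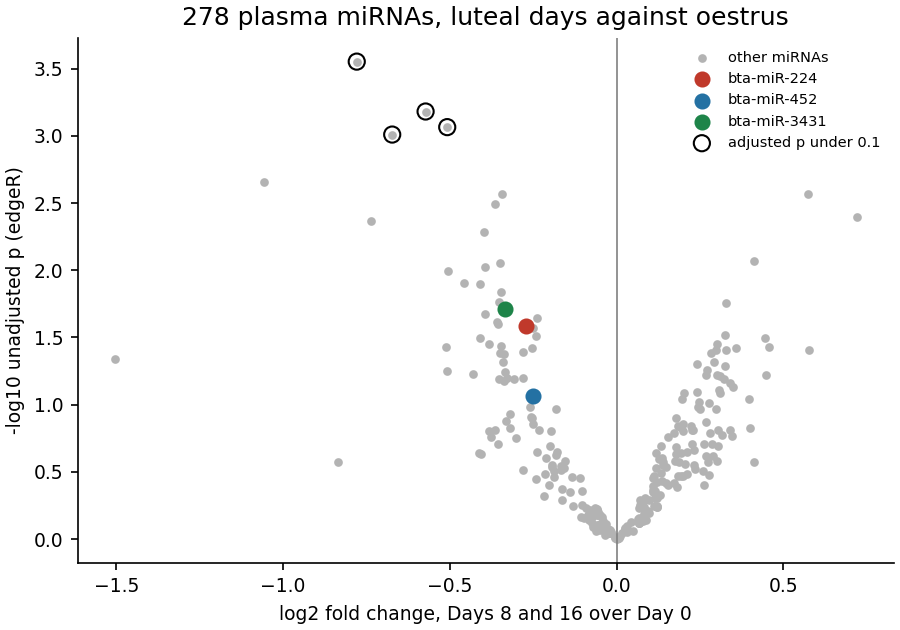
Each point is 1 of the 278 miRNAs of the wider fit, with the log2 fold change of Days 8 and 16 over Day 0 on the x axis and the -log10 of the unadjusted edgeR p on the y axis. miR-224 (red, log2 fold change -0.27), miR-452 (blue, -0.25) and miR-3431 (green, -0.33) lie among the lower miRNAs, outside the 4 that are circled for an adjusted p below 0.1.

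Within animals, miR-224 was lower on the mean of the luteal days than on Day 0 in 7 of 8 heifers, and 8.63% of the 278 miRNAs were lower in at least 7. The mean log2 difference of TMM-scaled CPM (counts over the scaled library size) was -0.27 ± 0.29 (SD, n = 8 heifers), which is a ratio of 0.831. Its interval was -0.49 to -0.03, and an exact sign-change test over the 8 heifers, two-sided, gave p = 0.0391, with an adjusted p of 0.448 over the 278 miRNAs. Heifer 16 had the largest differences, -0.79 on Day 8 and -0.71 on Day 16. Heifer 21 went the other way, with 0.27 on Day 8 and 0.33 on Day 16. On Day 8 alone the mean was -0.31 ± 0.30 (7 of 8 heifers lower, exact p = 0.0313, adjusted p = 0.395), where 8.99% of miRNAs were lower in at least 7. On Day 16 it was -0.23 ± 0.34 (6 of 8 heifers lower, exact p = 0.0938, adjusted p = 0.465), where 18.7% were lower in at least 6.

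For miR-452 the direction was less uniform. On the mean of the luteal days 5 of 8 heifers had less of it than on Day 0, and 31.3% of miRNAs were lower in at least 5. The log2 difference averaged -0.24 ± 0.37, with an interval of -0.59 to 0.14 (exact p = 0.117, adjusted p = 0.459). It was lower on Day 8 in 5 of 8 heifers (-0.24 ± 0.46, exact p = 0.188), where 32.7% of miRNAs were lower in at least 5, and on Day 16 in 6 of 8 (-0.24 ± 0.32, exact p = 0.0859), where 18.7% were lower in at least 6. Heifer 21 again stood above its Day 0 level with TMM scaling, by 0.29 on Day 8 and 0.19 on Day 16, and so did heifer 25, by 0.15 and 0.07. In RPMM both were below it on Day 16, with -0.34 in heifer 21 and -0.17 in heifer 25. The intervals hold both no difference and a miR-452 level about as much lower as that of miR-224.

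The 2 scales parted on Day 16 and on the mean of the luteal days, and slightly for miR-452 on Day 8. That mean in RPMM was below the Day 0 level of miR-224 in 8 of 8 heifers (-0.33 ± 0.23, exact p = 0.0078, adjusted p = 0.271), against 7 of 8 with TMM scaling, and 2.16% of the 278 miRNAs were lower in 8 of 8. In RPMM, the Day 16 level of miR-224 was below the Day 0 level in 8 of 8 heifers, which held for 2.52% of the 278 miRNAs. The log2 difference averaged -0.37 ± 0.15, with an exact p of 0.0078, the smallest that 8 pairs allow, and an adjusted p of 0.256. In TMM-scaled counts it was lower in 6 of 8, by -0.23. miR-452 likewise had -0.36 ± 0.40 in RPMM (6 of 8 heifers lower, as were 29.9% of miRNAs in at least 6, exact p = 0.0391, adjusted p = 0.350), against -0.24 with TMM scaling. On the mean of the luteal days miR-452 had -0.29 ± 0.39 in RPMM (6 of 8 heifers lower), against -0.24 with TMM scaling (5 of 8). On Day 8 it had -0.21 in RPMM (4 of 8 heifers lower), against -0.24 with TMM scaling (5 of 8). The median log2 fold change of all 181 miRNAs for Day 16 over Day 0 was 0.00 with TMM scaling and -0.12 in RPMM, so part of each Day 16 difference in RPMM was common to the bulk of miRNAs. For Day 16 over Day 8 the sign of miR-224 itself turned, with 0.081 in TMM-scaled counts and -0.074 in RPMM.

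**Figure D3:**
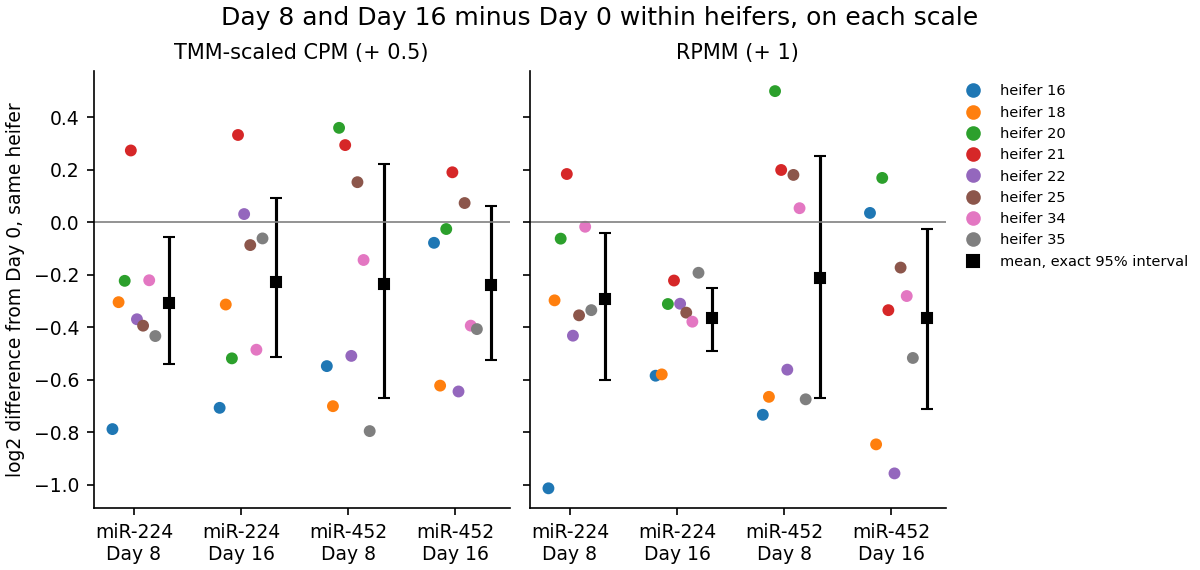
Log2 difference of Day 8 and of Day 16 from Day 0 in the same heifer, for TMM-scaled CPM (left) and RPMM (right). Coloured points are heifers, and black squares with bars are the mean and its exact interval, so that the miR-224 points for Day 16 lie below 0 in 6 of 8 heifers on the left and in 8 of 8 on the right.

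The share of variation between heifers was larger than that between days, but there were also more heifers than days. The shares were not corrected for this, and noise alone would also give heifers the larger share. They therefore do not show whether heifers or days differed more. Of the variation of log2 TMM-scaled miR-224 over the 24 libraries, 64.5% lay between heifers, 13.8% between days and 21.7% in the rest. For miR-452 the shares were 57.5%, 10.3% and 32.2%. Over all 278 miRNAs the median shares were 39.2% between heifers and 8.52% between days, so both members had more of their variation between animals than the median miRNA. Heifer 20 had the highest mean of both, with 126 TMM-scaled CPM of miR-224 and 28.8 of miR-452. The lowest means were 68.7 for miR-224, in heifer 21, and 16.7 for miR-452, in heifer 25, where heifer 21 was next with 16.9.

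The ratio of miR-452 to miR-224 needs no scaling, since both counts come from the same library. miR-452 made up 19.3% of the pooled counts of the pair, with 1520 counts beside 6341, or 4.17 counts of miR-224 for each of miR-452. By day its share was 19.1% ± 3.92 for Day 0, 19.7% ± 2.80 for Day 8 and 18.7% ± 1.31 for Day 16 (SD over 8 libraries), so the day means lay within 1 SD of each other. The lowest share was 14.5%, in heifer 16 on Day 0 (95% Wilson interval 10.6% to 19.4%), and the highest 25.8%, in heifer 22 on Day 0 (22.2% to 29.8%). In 3 of 24 libraries the interval did not hold the pooled share. The SD of the log2 ratio over libraries was 0.26, where counting alone gives 0.21, and the intervals cover counting error only. Within heifers the log2 ratio of miR-452 to miR-224 differed by 0.03 ± 0.39 between the luteal days and Day 0, with an interval of -0.37 to 0.39, which still allows a difference of that size in either direction.

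**Figure D4:**
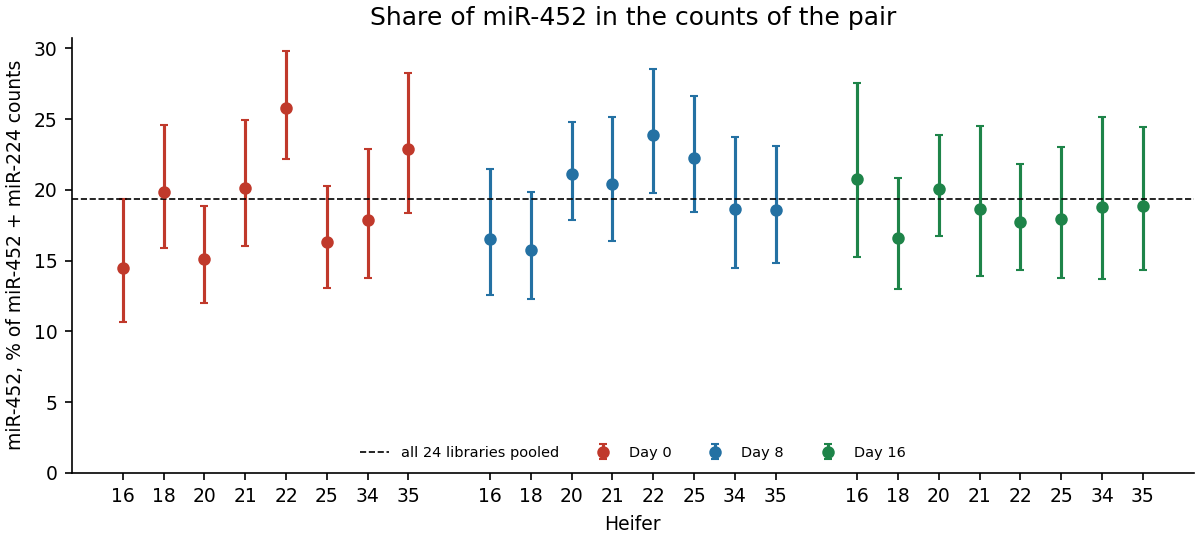
Share of miR-452, in percent, of the summed miR-452 and miR-224 counts of each library, ordered by day and heifer, with 95% Wilson intervals as bars. The dashed line is the pooled 19.3%, and the shares run between 14.5% and 25.8% with both ends on Day 0.

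miR-224 and miR-452 were correlated across libraries. Over the 24 libraries Pearson's r of log2 TMM-scaled CPM was 0.749 and Spearman's rho 0.796, and without the 2 libraries farthest from the median of miR-224 r was 0.782. These points share heifers, since each gave 3 libraries, and both values of a library share its scaling factor, so the correlation is given as a description. Within days r was 0.650 on Day 0, 0.762 on Day 8 and 0.876 on Day 16 (n = 8 each). With each heifer's mean removed, which leaves the course within animals, r was 0.567.

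The miRNA most like each member over the 24 libraries was their neighbour miR-3431, a miRNA named in cattle. Of the 277 other miRNAs of the wider fit it had the highest r with miR-224 (0.857) and with miR-452 (0.823), and it kept that place in RPMM (0.901 and 0.835). The median r over all 277 was 0.02 for miR-224 and 0.00 for miR-452. miR-452 was the 7th most like miR-224, and miR-224 was the next most like miR-452 after miR-3431. By the SD of the log2 count ratio, which needs no scaling, miR-224 was the steadiest partner of miR-452 (0.26) and miR-3431 followed (0.28), where the median SD over the 277 was 0.58. Among the partners of miR-224 the steadiest was miR-154c of chromosome 21 (0.25). miR-452 and miR-3431 shared places 3 and 4 (0.26 for both), too close to be put in order. This ratio measure was chosen after values were seen.

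The remaining miRNAs that ranked highest did not come from the same stretch of X. For miR-224 they were hsa-miR-4532 (0.817), a human record, and miR-432 (0.796), miR-154c (0.793) and miR-487b (0.765). The last 3 lie on chromosome 21, in the imprinted cluster known as DLK1-DIO3 in mammals. For miR-452 they were miR-33b (0.689), which lies within SREBF1 in human, miR-154c (0.670) and miR-660 (0.573), an X-linked miRNA. With heifer means removed, the order changed: miR-487b was the most like miR-224 (0.921), miR-3431 was the 5th (0.752), and miR-100 was the most like miR-452 (0.842). On those values miR-452 was the 30th most like miR-224 and miR-224 the 37th most like miR-452, and miR-3431 was not among the 5 most like miR-452 (0.579).

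**Figure D5:**
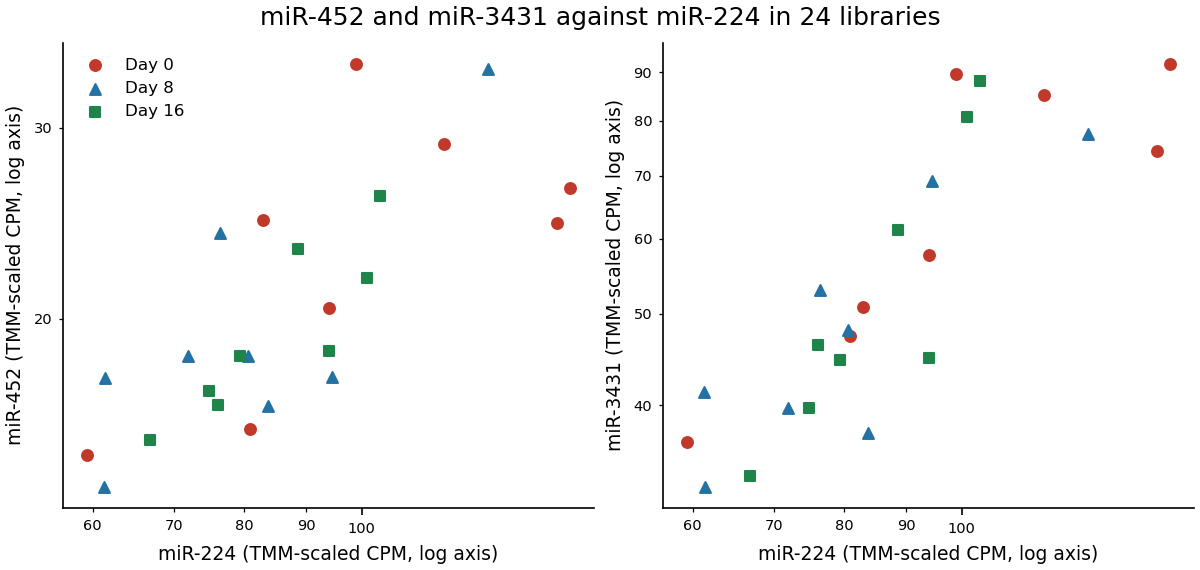
TMM-scaled CPM of miR-452 (left) and miR-3431 (right) against miR-224, on log axes, with 1 point for each of the 24 libraries and symbols by day. Libraries high in miR-224 were high in both, with r = 0.749 and r = 0.857, and the days overlapped.

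miR-3431 had levels between those of the pair. On Day 0 its lowest, median and highest levels were 29.7, 43.3 and 79.4 RPMM (mean 47.5 ± 15.3, SD, n = 8). On Day 8 they were 18.8, 37.3 and 51.3 RPMM (36.2 ± 10.8), and on Day 16 they were 21.8, 30.8 and 60.2 RPMM (36.2 ± 14.7). The days overlapped here too. Its log2 fold change for the luteal days over Day 0 was -0.33 (SE 0.13, p = 0.0195, adjusted p = 0.258 by edgeR), and it was lower in 7 of 8 heifers (exact p = 0.0156, adjusted p = 0.448). Of all 278 miRNAs, 8.63% were lower in at least 7 of 8 heifers. All 3 miRNAs within GABRE thus had negative values for the luteal days, as had 47.8% of the 278. None of the 3 passed the limit, beside 1.44% of the 278. The 3 were correlated over libraries, so their shared sign is not 3 independent results.

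Other miRNAs of X were set beside them, since the position is shared. Apart from the pair, 34 miRNAs of the table lie on X and 18 entered the wider fit: 11 of the 18 had a fold change below 0 for the luteal days over Day 0, as had 47.8% of all 278. Of the 18, 5 had an unadjusted p below 0.05, all of them lower, beside 12.2% of all 278, and 0 passed after adjustment (edgeR), beside 1.44% of all 278. In the fit on 181 miRNAs, 12 of them were tested and 1 passed, miR-532 (log2 fold change -0.37, adjusted p = 0.0924 by edgeR). In the wider fit their median log2 fold change was -0.07, against 0.01 over all 278. The smallest p values of that fit belonged to miR-532 (log2 fold change -0.34, adjusted p = 0.108 by edgeR), miR-502a (-0.51, adjusted p = 0.188) and miR-3431. miR-532 and miR-502a belong to a cluster that lies within CLCN5 in human.

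A list of 16 miRNAs known from follicles and granulosa cells gave the setting of the pair in plasma. Of them 15 were listed and 11 entered the wider fit, where 8 had a fold change below 0 for the luteal days over Day 0, beside 47.8% of all 278. Of the 11, 2 had an unadjusted p below 0.05, both lower, beside 12.2% of all, and 0 passed after adjustment (edgeR), beside 1.44%. The median over the 11 was -0.24, against 0.01 over all 278 and close to the values of miR-224 and miR-452. Those with the smallest p were miR-23a (-0.24, adjusted p = 0.258), which acts on the inhibitor of apoptosis XIAP in human granulosa cells, miR-99a-5p (-0.35, adjusted p = 0.258) and miR-145 (-0.51, adjusted p = 0.286). Many of these are also abundant in blood cells or vessels, miR-23a among them with a mean of 2278 RPMM. The list was not independent of earlier results on these animals. By quantitative PCR, the paper reports higher plasma levels at oestrus for miR-99a-5p and miR-145. For miR-125b it reports only a tendency, without an overall effect of day. By sequencing it lists miR-23a and miR-125b among miRNAs that differed by day before adjustment. A list median below 0 was therefore partly set by the choice of members. The list also holds miR-132 and miR-378, which the paper names as lower in follicular than in luteal tissue. Its members thus share no single expected direction.

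miR-202, which is enriched in the gonads, was looked up as a marker of gonadal RNA, although 1 miRNA cannot measure how much ovarian RNA the plasma held. It had 30 counts in all 24 libraries together, a mean of 0.290 RPMM and a highest level of 1.24 RPMM. It was counted in 4 libraries on Day 0, 6 on Day 8 and 3 on Day 16. The label of the pair as granulosa cell miRNAs was therefore not checked by these libraries, in which this gonadal miRNA was near 0 while markers of blood cells and liver were high.

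Blood-cell RNA varied beside the pair. The 6 erythrocyte markers, 6 of 6 in the table and none at 0, summed to 42792 to 373679 RPMM on Day 0 (median 163956), 78336 to 300290 on Day 8 (143037) and 111579 to 406436 on Day 16 (237544). Over the 24 libraries the miR-486 share of counts had r = 0.324 with log2 TMM-scaled miR-224 and r = 0.000 with miR-452, and r = -0.109 and r = -0.355 in RPMM. The 4 platelet, 5 leukocyte and 3 liver markers were all in the table, with none at 0, and their sums overlapped between days. In a fit with the mean log2 level of miR-486 and miR-451 as a covariate, the luteal log2 fold change was -0.30 for miR-224 (adjusted p = 0.195 by edgeR) and -0.21 for miR-452 (adjusted p = 0.449), so neither call differed with that term.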

How the data were processed

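Plasma was spun in 2 steps from EDTA blood, RNA was extracted with TRIzol LS, and TruSeq small-RNA libraries were sequenced as 36-base single reads on an Illumina HiSeq. The authors used sRNAbench, with Bowtie 0.12.9 per the labels: trimmed reads were matched to mature bovine and human miRNAs with at most 1 mismatch, with the UMD assembly as reference. Deposited values are raw counts for every miRNA and library, and the authors' RPMM (RPM over genome-mapped reads). All 24 libraries were used, and 0 sample columns were left unused here. Reads without molecular identifiers are not independent molecules, so intervals cover counting error only.

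Counts of the 870 miRNAs were tested with edgeR 4.0.16 (quasi-likelihood, TMM scaling, in R 4.3.3) over all libraries, with terms for day and for heifer, first on the 181 miRNAs above 25 RPMM in at least 6 of 8 libraries of each day and then on the 278 above 10 counts. Benjamini-Hochberg adjustment ran over all miRNAs of a fit with a limit of 0.1. The heifer term pairs libraries of the same animal, as the labels give it. Exact sign-change tests used within-heifer differences of log2(TMM-scaled CPM + 0.5), and their intervals, which invert that test, have a level of 95.3%. The RPMM scale used a pseudocount of 1. The repeated-measures F test on log2 RPMM, as in the study, was an alternative, since counts carry the depth.

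Alternatives were RLE, total-count and mapped-read scaling, totals without miR-486, no low limit, filterByExpr, DESeq2 1.42.0, limma 3.58.1 on log2 RPMM with pseudocounts of 1 and 0.1, a covariate of miR-486 and miR-451, no heifer term, and each heifer left out. The fits were tested on simulated data. Named miRNAs were the pair, the 5 most correlated with each, and the 3 with the smallest p of the X-chromosome and follicle lists. The members and lists were chosen with earlier results of these data known. Figures were drawn with matplotlib 3.10.9.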

Additional observations from a re-analysis of the deposited data

Results flagged for a closer look

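The highest miR-452 library of Day 0, heifer 22 with 30.4 RPMM, lay far from the other 7 oestrus libraries: its gap to the next was 0.629 of the whole range of the day. In TMM-scaled CPM, the scale of the tests, the same library had 34.4, the next was heifer 18 with 29.0, and the gap was 0.277 of the range. The RPMM value was the only one so far apart among 15 groups of 8 examined, and chance alone gives about 1 in 20 groups.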

How the results depend on the processing

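Neither miR-224 nor miR-452 passed an adjusted p of 0.1 under most alternatives; the exceptions were miR-224 without heifer 21 (adjusted p = 0.0739 for the effect of day, log2 fold change -0.40 for the luteal days and -0.47 for Day 8 over Day 0) and with DESeq2 for Day 8 over Day 0 (-0.34, adjusted p = 0.0995). Leaving out each heifer gave miR-224 -0.40 to -0.22 for the luteal days over Day 0, -0.47 to -0.28 for Day 8 and -0.34 to -0.17 for Day 16, an adjusted p for the effect of day of 0.0739 to 0.616, and, for miR-452, -0.32 to -0.19, -0.34 to -0.15 and -0.32 to -0.20. Over the other alternatives the adjusted p for the luteal days over Day 0 ran 0.101 to 0.562 for miR-224 and 0.266 to 0.674 for miR-452. Day 16 over Day 8, near 0 for both, turned sign: for miR-224 it was -0.090 with total-count and -0.086 with mapped-read scaling, -0.074 and -0.075 by limma on RPMM with pseudocounts of 1 and 0.1, and -0.074 by the exact test on RPMM, and for miR-452 it was 0.053 with the covariate, and -0.086 to 0.060 by edgeR and -0.070 to 0.053 by the exact test without each heifer. The median of all 181 miRNAs for Day 16 over Day 0, 0.00 with TMM, was -0.19 with total-count and -0.13 with mapped-read scaling.

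The number of miRNAs called depended on the setting, and the cause was not tested. It is out of 181, except with no low limit (697 miRNAs) and filterByExpr (326). For the effect of day it was 0, against 3 with no low limit, 2 with filterByExpr, 8 with DESeq2 and 0 to 14 without each heifer. For the luteal days over Day 0 it was 5, against 8 with filterByExpr, 15 with DESeq2, 0 with the covariate and 0 to 27 without each heifer, with 27 without heifer 21, 3 without heifer 20 and 0 without any of the others. For Day 8 over Day 0 it was 2, against 8 with RLE, 5 with filterByExpr, 15 with DESeq2, 7 with the covariate, 1 with no low limit, 0 with total counts, mapped reads or limma at either pseudocount, and 0 to 33 without each heifer. For Day 16 over Day 0 it was 0, against 3 with no low limit, 1 with filterByExpr, 3 with DESeq2 and 0 to 3 without each heifer. The correlation of the pair was 0.793 in RPMM, 0.567 with heifer means removed and 0.683 to 0.820 without each heifer. Without the block for the heifer, the luteal log2 fold change was -0.31 for miR-224 (adjusted p = 0.335 by edgeR) and -0.25 for miR-452 (adjusted p = 0.475), with 4 miRNAs called for the luteal days and 2 for Day 8 over Day 0, and no call on the pair differed. The low counts of miR-452, 33 to 130 in each library, limit its precision.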
